A study of Mus musculus with 12 samples.

Results

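The genes for liver-made complement, coagulation and fibrinolysis proteins were compared between germ-free and conventionalized mouse liver. They were taken as the rows whose symbol equalled one of 39 listed names, with the C1q genes left out. Of the 39 names, 38 matched a row, out of 41128 genes in the table, and Klkb1, the prekallikrein gene, is not analysed here. The 38 genes held 18 of complement and 20 of coagulation and fibrinolysis, and all 38 passed the filter on low values that left 11782 genes for testing. Livers came from 12 C57BL/6 mice with no transgene or deletion given in the labels, sampled at 6 weeks of age as snap-frozen tissue. The 6 germ-free (GF) mice, 3 males and 3 females by their labels, stayed in sterile isolators. The 6 conventionalized (CV) mice, 3 labelled male and 3 labelled female, were littermates of such mice that left the isolators at weaning on day 21 and spent 3 weeks in cages with used bedding from the facility, which carries microbes. CV is therefore a colonization of 3 weeks, not a lifelong one. Each library came from 1 mouse, and libraries were made with a stranded mRNA kit.

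Hepatocytes secrete most of the complement and clotting proteins of plasma. In complement, lectins or antibodies on a microbe start a chain of proteases that cleaves C3 and ends in the membrane attack complex, while regulators hold the chain in check on host cells. In coagulation, a chain of proteases, several of which need vitamin K for their activation, yields thrombin, which turns fibrinogen into fibrin. Anticoagulant proteins stop the proteases, and plasmin later dissolves the clot. Several of these genes, the fibrinogen genes and C3 among them, are known as acute phase genes, which the liver raises after cytokine signals such as IL-6.

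Libraries held between 5993619 and 15290835 reads, and the lowest read count of any member in any library was 32, for Cfb. The libraries of the conditions differed in their make-up. Mitochondrial ribosomal RNA took 9.36% to 16.4% of reads in GF and 1.39% to 6.32% in CV, and nuclear protein-coding genes took 24.3% to 50.8% in GF and 73.9% to 92.2% in CV. Among the CV males, CV male 1 (1.39% mitochondrial ribosomal RNA) sat with the CV females (1.51% to 1.81%), and CV males 2 and 3 had 5.89% and 6.32%. The library labelled CV male 3 went against its label. It held 0 reads of Y-linked genes, against at least 796 in the other males, and an Xist value of 2382, against at most 21.3 in them, so the main counts of calls and the values of C6 and C9 are also given without it. All 10 hepatocyte markers were present in every library. Values below are the deposited gene counts divided by a library size factor. Changes are differences of log2(value + 1), which understate the change of low genes, and tests are from limma with Benjamini-Hochberg adjustment over all 11782 genes and a threshold of 0.05.

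Most of the genes were higher in CV liver. Over both sexes, 30 of the 38 rose in CV and 1, Hc, fell, while 7 (C2, C4b, C6, C8a, F5, F11 and Pros1) did not pass the threshold. Among all genes tested, 32.3% rose and 28.7% fell. The median log2 change of the 38 was 1.23, against 0.07 over all genes, with a range from -0.84 for C6 to 2.31 for Fgg. Complement (13 of 18 higher, median 1.23) and coagulation and fibrinolysis (17 of 20 higher, median 1.27) had similar medians. In 17 of the 38, all 6 CV libraries lay above all 6 GF libraries, which held for 15.6% of all genes. In 20 of the 38, the 3 CV values exceeded the 3 GF values in each sex taken alone, against 18.6% of all genes, and for Hc they were under them in each sex, against 17.9%. As a share of nuclear protein-coding reads, the 38 together took 2.41% to 3.25% in GF and 3.23% to 5.46% in CV, and the ranges met at CV male 2 (3.23%) and GF female 2 (3.25%).

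The size of these changes moved with the scaling of the libraries. With libraries scaled to all reads, the median of all genes was 0.62 and 34 of the 38 rose and 0 fell, beside 50.3% and 13.7% of all genes. With libraries scaled to nuclear protein-coding reads, the median of all genes was -0.59, 21 of the 38 rose and 6 fell (Hc, C2, C6, F5, F11 and Pros1), beside 12.7% and 49.8% of all genes. A rescaling shifts all genes of a library almost alike, so it could hardly move the median of the 38 relative to all genes. That distance was 1.14 to 1.17 under the deposited scaling, TMM factors and both of these scalings. With a trend with transcript length and GC content removed, which can move the distance, it was 0.90. The mitochondrial ribosomal RNA share moved with condition, and 93.5% of its variance lay between the 4 groups. With this share as a covariate in limma, 0 of the 38 and 0 of the 11782 genes passed the threshold. An unadjusted p under 0.05 was held by 5 of the 38 and by 1985 of the 11782 genes, and the median of the 38 was 0.07. Condition and this share cannot be told apart here. edgeR and DESeq2, run without the covariate, called 30 and 31 of the 38 higher, beside 30.1% and 31.6% of all genes.

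**Figure D1:**
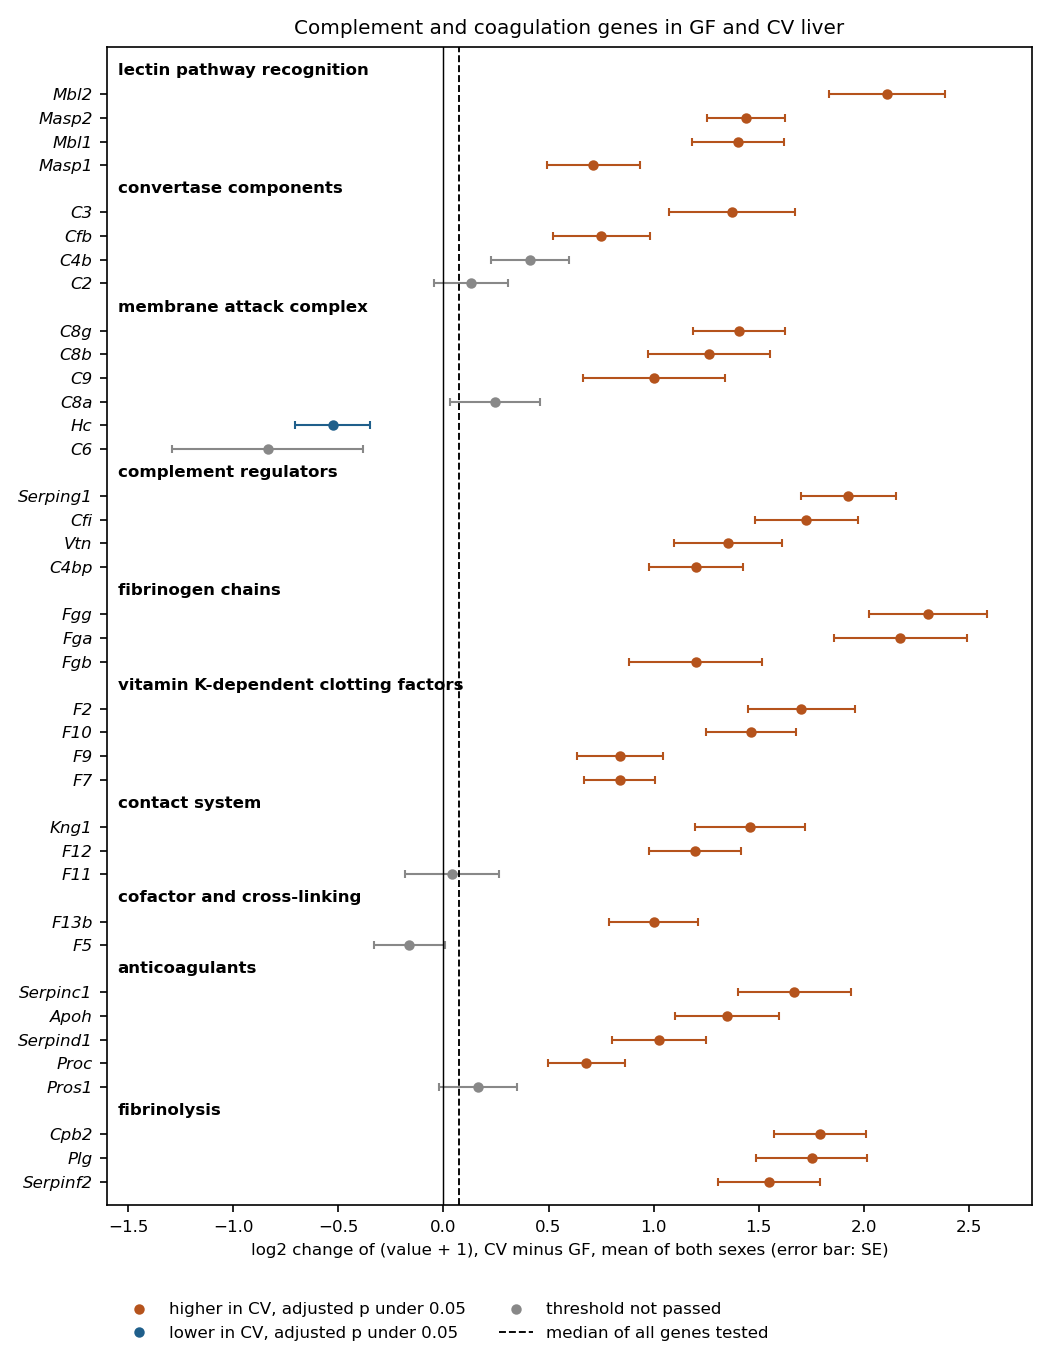
Log2 change of (value + 1), CV minus GF as the mean of both sexes, for each of the 38 genes by role, with standard errors as bars. Orange points passed the threshold upward (30), the blue point, Hc, passed it downward, grey points did not pass (7), and the dashed line is the median of all genes tested (0.07).

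Cell type markers moved as well. Their counts are over both sexes, where 32.3% of all genes were higher in CV and 28.7% lower. Of 10 hepatocyte markers, 7 were higher in CV and 0 lower, and their summed value was 111685 to 441384 in GF and 370467 to 606920 in CV. Of 8 Kupffer cell markers, 4 were higher and 0 lower, with sums of 1003 to 1896 in GF and 1190 to 2694 in CV. Lymphocyte markers (4 of 5 tested lower) summed to 125 to 234 in GF and 44.5 to 62.8 in CV, and blood markers (4 of 5 tested lower) to 2781 to 32901 in GF and 916 to 3160 in CV. Of 3 neutrophil and platelet markers tested, 2 were lower, with sums of 68.9 to 250.04 in GF and 29.7 to 103 in CV. The sinusoidal endothelial, stellate and cholangiocyte lists had at most 1 call in each direction. No marker was at 0 in all libraries, and Ly6g, a neutrophil marker, was at 0 in 11 of 12. The part of these cells in the result was not tested. In bulk tissue, a larger share of hepatocyte RNA and more RNA of a gene per hepatocyte cannot be told apart.

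The lectin pathway genes were all higher in CV. Mbl2 and Mbl1 encode mannose-binding lectins, which recognise sugars on microbes, and Masp1 and Masp2 encode the proteases bound to them. Mbl2 values were 842, 1825 and 1163 in the GF males, 799, 1599 and 535 in the GF females, 3244, 2505 and 5676 in the CV males and 5963, 5445 and 5318 in the CV females. Every CV library lay above every GF library (log2 change 2.11 ± 0.28 SE, limma adjusted p = 1.09e-05), a 4.32-fold rise. Mbl1 values were 854, 1561 and 984 in the GF males, 391, 617 and 265 in the GF females, 1679, 1670.3 and 2041 in the CV males and 1362, 1869 and 1968 in the CV females. All CV males lay above the GF males and all CV females above the GF females, although CV female 1 lay under GF male 2 (log2 change 1.40 ± 0.22 SE, limma adjusted p = 5.26e-05). Masp2 rose by 1.44 ± 0.19 SE on the log2 scale without overlap between the conditions, and Masp1 by 0.71 ± 0.22 SE with overlap. The ratio of reads of Mbl2 to Mbl1 within a library ran from 0.985 to 2.59 in GF and from 1.4998 to 4.38 in CV, with overlap.

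Among the genes of the convertases, the enzymes that cleave C3, the central protein C3 rose and C2 and C4b did not pass. C3 values were 9131, 17340.4 and 11454 in the GF males, 10112, 19508 and 10182 in the GF females, 32848, 15169.7 and 31013 in the CV males and 47255, 34943 and 42993 in the CV females. The CV females lay above the GF females, while CV male 2 lay under GF male 2 and, among all libraries, under GF female 2 (log2 change 1.37 ± 0.30 SE, limma adjusted p = 0.000922). Cfb, factor B of the alternative pathway and the least abundant of the 38, rose by 0.75 ± 0.23 SE on the log2 scale from a GF range of 45.3 to 101.1. C2, the protease of the classical and lectin convertase, had values of 162, 145 and 113 in the GF males, 70.9, 90.4 and 105 in the GF females, 173, 122 and 125 in the CV males and 110.2, 92.7 and 114 in the CV females. Its groups overlapped in both sexes (log2 change 0.13 ± 0.18 SE, limma adjusted p = 0.539). C4b, the scaffold on which C2 acts, had values of 3879, 3427 and 3867 in the GF males, 2986, 2926 and 3548 in the GF females, 5475, 3618 and 3983 in the CV males and 5511, 4553 and 4439 in the CV females. The CV females lay above the GF females and the males overlapped (log2 change 0.41 ± 0.19 SE, limma adjusted p = 0.0648). With the trend of length and GC content removed, C4b was called higher, with a change of 0.82 ± 0.16 SE (limma adjusted p = 0.000532). Exons of C2 and Cfb are shared with the read-through gene Gm20547, and C4b has a near-identical neighbour, C4a, with values of 15.3 to 109, so reads of these 3 members could be split between genes.

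The membrane attack complex genes went in different directions. The complex is the pore that C5 (encoded by Hc), C6, C7, the 3 chains of C8 and C9 assemble in a target membrane. Of the 6 members, C8g, C8b and C9 rose, Hc fell, and C6 and C8a did not pass. C8g, the lipocalin chain of C8, had values of 3003, 6143 and 4311 in the GF males, 1584, 2333 and 1290.0 in the GF females, 7582, 7396 and 7677 in the CV males and 5987, 7449 and 6853 in the CV females. Each CV group lay above the GF group of its sex, with the CV males from 7396 to 7677 (log2 change 1.41 ± 0.22 SE, limma adjusted p = 5.02e-05). C8b values were 849, 1898 and 1299.5 in the GF males, 388, 596 and 261 in the GF females, 3503, 1786 and 1023 in the CV males and 1223, 1691 and 1838 in the CV females. The CV females lay above the GF females, and the males overlapped (log2 change 1.26 ± 0.29 SE, limma adjusted p = 0.00133). C8a values were 1820.4, 2348 and 2095 in the GF males, 1001, 894 and 857 in the GF females, 2826, 2155 and 1056 in the CV males and 1353, 1416 and 1532 in the CV females. The females were separate, with CV above GF, and the males overlapped (log2 change 0.24 ± 0.21 SE, limma adjusted p = 0.335). The library labelled CV male 3 lay under all 3 GF males in C8a.

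Hc was the only one of the 38 called lower over both sexes. Its values were 3941, 3074 and 3547 in the GF males, 2821, 2189 and 2942 in the GF females, 2752, 1949 and 2004 in the CV males and 2164, 1914 and 1954 in the CV females. In each sex the CV libraries lay under the GF libraries, although CV male 1 lay above GF female 2 (log2 change -0.53 ± 0.18 SE, limma adjusted p = 0.0166). Leaving out any 1 library kept this call, and scaling to all reads moved the value to 0.034 and removing a trend with transcript length and GC content moved it to -0.10, both past no threshold. Hc has one of the longer transcripts of the list, at 5445 bases. C3 and C5 are related proteins with transcripts of similar length (5136 bases for C3), and the reads of Hc per read of C3 within a library were 0.112 to 0.432 in GF and 0.0455 to 0.129 in CV. The ranges overlapped only between CV male 2 (0.129) and GF female 2 (0.112).

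C6 and C9 are shown with the sexes further on, since their levels differed by sex. C9, the pore-forming subunit, was higher in CV over both sexes (log2 change 1.00 ± 0.34 SE, limma adjusted p = 0.0169), and C6 was not called (log2 change -0.84 ± 0.45 SE, limma adjusted p = 0.12). Without the library labelled CV male 3, the C6 change was -0.24 ± 0.21 SE. Without CV male 1, C6 was called lower (-1.19 ± 0.43 SE) and C9 was no longer called (0.72 ± 0.30 SE). Without GF male 1, C9 was not called either (0.84 ± 0.35 SE).

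All 4 complement regulators were higher in CV. Serping1 encodes C1 inhibitor, which blocks the proteases of both complement and the contact system. Its values were 1811, 2100.0 and 1879 in the GF males, 1066, 1423 and 1133 in the GF females, 8439, 3044 and 4253 in the CV males and 6814, 6827 and 7318 in the CV females. The lowest CV library (CV male 2) lay above the highest GF library (GF male 2), a 3.8-fold rise (log2 change 1.93 ± 0.23 SE, limma adjusted p = 4.26e-06). Cfi, the protease that inactivates C3b and C4b, rose by 1.73 ± 0.25 SE and C4bp, its cofactor, by 1.20 ± 0.22 SE on the log2 scale, neither with overlap. For Cfi the conditions nearly met, with CV male 2 at 1422 and GF male 2 at 1419. Vtn, vitronectin, which keeps the membrane attack complex out of membranes, rose by 1.35 ± 0.26 SE with overlap, since CV male 2 (13156) lay under GF male 2 (13546).

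The fibrinogen chains held the 2 largest changes on the list. Fga, Fgb and Fgg encode the chains of fibrinogen, the precursor of fibrin, and lie close together on chromosome 3 (GENCODE M21 on GRCm38, Fgg from 83007724 to 83015049, Fga from 83026076 to 83033627 and Fgb from 83040141 to 83049863). Because the 3 genes make 1 protein, their RefSeq promoters are shown here, as the 250 bases before each RefSeq start on build GRCm38.p6, 5′ to 3′ on the strand of the gene. Capitals mark matches, on either strand, to 4 motifs of factors that act in hepatocytes: the HNF1 half-site GTTAAT, the C/EBP motif TTGCNNAA, the IL-6 response element CTGGGAA and the STAT motif TTCNNNGAA.
Fga, chr3:83025903-83026152, plus strand: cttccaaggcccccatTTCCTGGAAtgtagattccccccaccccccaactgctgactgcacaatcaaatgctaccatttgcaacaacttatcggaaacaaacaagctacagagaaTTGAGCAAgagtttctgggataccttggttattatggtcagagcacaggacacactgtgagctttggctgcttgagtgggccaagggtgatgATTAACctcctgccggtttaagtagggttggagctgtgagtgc
Fgb, chr3:83049864-83050113, minus strand: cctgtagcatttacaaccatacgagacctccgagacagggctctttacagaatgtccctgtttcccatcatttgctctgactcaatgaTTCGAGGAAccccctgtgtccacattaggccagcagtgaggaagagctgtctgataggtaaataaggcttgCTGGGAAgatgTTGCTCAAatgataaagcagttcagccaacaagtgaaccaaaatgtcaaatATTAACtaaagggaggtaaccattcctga
Fgg, chr3:83007474-83007723, plus strand: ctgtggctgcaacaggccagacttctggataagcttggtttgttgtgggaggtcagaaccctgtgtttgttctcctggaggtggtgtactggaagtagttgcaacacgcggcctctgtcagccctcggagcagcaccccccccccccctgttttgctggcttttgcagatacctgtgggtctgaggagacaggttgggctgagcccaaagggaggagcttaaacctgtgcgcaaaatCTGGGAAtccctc
In Fga, the matches begin 43 (HNF1), 135 (C/EBP) and 234 (STAT) bases before the start. In Fgb, they begin 29 (HNF1), 80 (C/EBP), 91 (IL-6 response element) and 162 (STAT) bases before it, and in Fgg the only match is the IL-6 response element at 13 bases. No printed matches overlap. The Fga stretch ends at 83026152, past the GENCODE start of Fga at 83026076. Its last part, with the HNF1 match, therefore lies inside the GENCODE gene.

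Of the 38 members, 29 had a promoter in the RefSeq table, and C2, C4b, Cfb, Cfi, Kng1, Masp1, Plg, Proc and Serping1 had none. The HNF1 half-site matched in 8 of the 29 and in 6.52% of 27025 promoters of the same length. The C/EBP motif matched in 6 (9.55% of all promoters), the STAT motif in 6 (7.18%), the IL-6 response element in 4 (9.08%), and the HNF4 motif CAAAGTC in 1, Vtn (3.80%). Hc and C8a, of which the first fell and the second was not called, both held the HNF1 half-site, as did C8b, C4bp, Fga, Fgb, F13b and Vtn, which rose. A match is a description of letters and not of a bound site.

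Fgg values were 3265, 6406 and 4786 in the GF males, 3155, 5009 and 2252 in the GF females, 25360.1, 10605 and 12771 in the CV males and 23891, 23824 and 26639.7 in the CV females. The lowest CV library, CV male 2, lay above the highest GF library, GF male 2, and the rise was 4.94-fold (log2 change 2.31 ± 0.28 SE, limma adjusted p = 5.49e-06). Fga values were 2912, 5233 and 3855 in the GF males, 3211, 4729 and 2398 in the GF females, 26573, 6264 and 8537 in the CV males and 22463, 21966 and 25802 in the CV females. The CV libraries again lay above all GF libraries, with CV males 2 and 3 far under CV male 1 and the CV females (log2 change 2.17 ± 0.32 SE, limma adjusted p = 2.83e-05). Fgb values were 16079, 33190.2 and 19078 in the GF males, 15998, 23208 and 8455 in the GF females, 42965, 27097 and 37953 in the CV males and 42826, 46714 and 53219 in the CV females. The females were separate and the males overlapped, since GF male 2 lay above CV male 2 (log2 change 1.20 ± 0.32 SE, limma adjusted p = 0.00363).

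The ratios between the chains within a library do not depend on the scaling of libraries, but they can depend on transcript length and GC content. With the trend of length and GC content removed, the Fgg change was 2.13 and the Fgb change 1.40, against 2.31 and 1.20 without removal. With the mitochondrial ribosomal RNA share as a covariate, they were 1.14 ± 0.96 SE and 1.34 ± 1.12 SE. Reads of Fgg per read of Fgb were 0.193 to 0.266 in GF and 0.336 to 0.590 in CV, with no overlap. Reads of Fga per read of Fgb were 0.158 to 0.284 in GF. In CV they were 0.618 in CV male 1 and 0.470 to 0.525 in the females, and 0.231 and 0.225 in CV males 2 and 3, which lay within the GF range. Reads of Fga per read of Fgg overlapped (0.805 to 1.06 in GF and 0.591 to 1.05 in CV). These ratios were chosen after the values had been seen and carry no test.

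**Figure D2:**
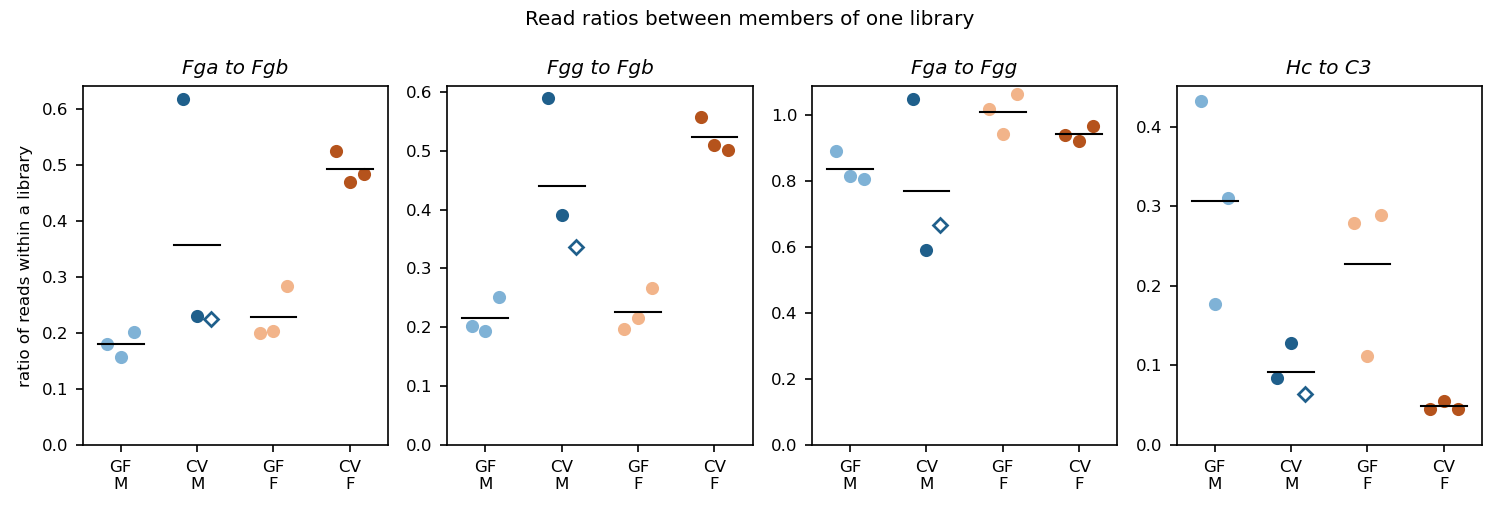
Ratio of reads of 2 genes within each library, by group (GF and CV, M males, F females), on axes that start at 0, with the group mean as a bar and the library labelled CV male 3 as an open diamond. The ratio of Fgg to Fgb was 0.193 to 0.266 in the 6 GF libraries and 0.336 to 0.590 in the 6 CV libraries, and that of Hc to C3 was 0.112 to 0.432 and 0.0455 to 0.129.

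All 4 vitamin K-dependent clotting proteases rose in CV. F2, prothrombin, whose active form cuts fibrinogen, had values of 4474, 6428 and 5761 in the GF males, 3498, 5030.0 and 3491 in the GF females, 21578, 8445 and 9479 in the CV males and 19419, 18446 and 19492 in the CV females. Every CV library lay above every GF library, with CV males 2 and 3 nearest to GF (log2 change 1.70 ± 0.25 SE, limma adjusted p = 3.46e-05). F10, which activates prothrombin, rose by 1.46 ± 0.21 SE on the log2 scale without overlap. F9, the factor lacking in haemophilia B, rose by 0.84 ± 0.21 SE and F7, which starts the extrinsic pathway with tissue factor, by 0.84 ± 0.17 SE. F7 and F10 are neighbours on chromosome 8, and their ratio of reads within a library was 0.204 to 0.587 in GF and 0.220 to 0.271 in CV, with overlap.

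In the contact system, which starts clotting on negatively charged surfaces and releases bradykinin, Kng1 and F12 rose and F11 did not. Kng1, kininogen, had values of 7138, 10585 and 7531 in the GF males, 5948, 9461 and 4579 in the GF females, 25296, 12655 and 17139 in the CV males and 20985, 23194 and 23626 in the CV females. All 6 CV libraries lay above all 6 GF libraries (log2 change 1.46 ± 0.26 SE, limma adjusted p = 0.000163). Kng1 has a near-identical copy, Kng2 (values of 721 to 2506), and reads could be split between them. F12, which starts the system, rose by 1.20 ± 0.22 SE without overlap, although CV males 2 and 3 (2310 and 2359) lay close to the highest GF library (2028). F11, the protease downstream of F12, had values of 721, 386 and 747 in the GF males, 764, 505 and 627 in the GF females, 922, 507 and 404 in the CV males and 639, 717 and 689 in the CV females. Its groups overlapped in both sexes, and the sign of its change turned with the tool and the scaling (log2 change 0.04 ± 0.22 SE, limma adjusted p = 0.881).

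Of the cofactor F5 and the carrier subunit F13b, the second rose. F13b, the subunit that carries the fibrin cross-linking enzyme in plasma, had values of 308, 468 and 343 in the GF males, 305, 492 and 355 in the GF females, 1045, 467 and 537 in the CV males and 999.8, 784 and 825 in the CV females. CV male 2 lay level with GF male 2 (467 and 468), and the females were separate (log2 change 1.00 ± 0.21 SE, limma adjusted p = 0.000705). F5, the cofactor of F10 and, at 7430 bases, the longest transcript of the list, had values of 2421, 1906 and 1845 in the GF males, 1558, 1920.5 and 1744 in the GF females, 1715, 1489 and 2097 in the CV males and 1699, 1503 and 1649.7 in the CV females. The groups overlapped (log2 change -0.16 ± 0.17 SE, limma adjusted p = 0.412), and removing the trend with transcript length and GC content turned the change to 0.50 ± 0.15 SE, which was called higher (limma adjusted p = 0.00933).

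Of 5 anticoagulant genes, 4 rose. Serpinc1, antithrombin, had values of 5914, 10427 and 7695 in the GF males, 4657, 7185 and 3369.8 in the GF females, 25624, 11431 and 16458 in the CV males and 22578, 23604 and 21593 in the CV females. All CV libraries lay above all GF libraries, with CV male 2 the nearest (log2 change 1.67 ± 0.27 SE, limma adjusted p = 6.97e-05). Apoh, which binds phospholipid surfaces, rose by 1.35 ± 0.25 SE, Serpind1, heparin cofactor II, by 1.02 ± 0.22 SE, and Proc, protein C, which inactivates F5 and F8, by 0.68 ± 0.18 SE on the log2 scale. Pros1, the protein S cofactor of protein C, had values of 178, 149 and 241 in the GF males, 217, 199 and 171 in the GF females, 282, 181 and 159 in the CV males and 256, 201 and 225 in the CV females. These overlapped in both sexes (log2 change 0.16 ± 0.19 SE, limma adjusted p = 0.453). The change of Proc was -0.0043 when libraries were scaled to nuclear protein-coding reads, and 0.13 with the trend of length and GC content removed, and neither passed the threshold.

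The 3 genes of fibrinolysis rose together in both sexes. Cpb2 encodes a carboxypeptidase that slows the breakdown of fibrin, Plg encodes plasminogen, which becomes plasmin, and Serpinf2 encodes the antiplasmin that blocks it. Cpb2 values were 676, 1192 and 829 in the GF males, 557, 713 and 349 in the GF females, 2958, 1596 and 1875 in the CV males and 2479, 2747 and 2674 in the CV females. Every CV library lay above every GF library (log2 change 1.79 ± 0.22 SE, limma adjusted p = 5.83e-06). Plg rose by 1.75 ± 0.26 SE and Serpinf2 by 1.55 ± 0.24 SE, also without overlap. Reads of Plg per read of Serpinf2 stayed within 1.79 to 2.56 over all 12 libraries (1.79 to 2.25 in GF and 2.18 to 2.56 in CV).

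**Figure D3:**
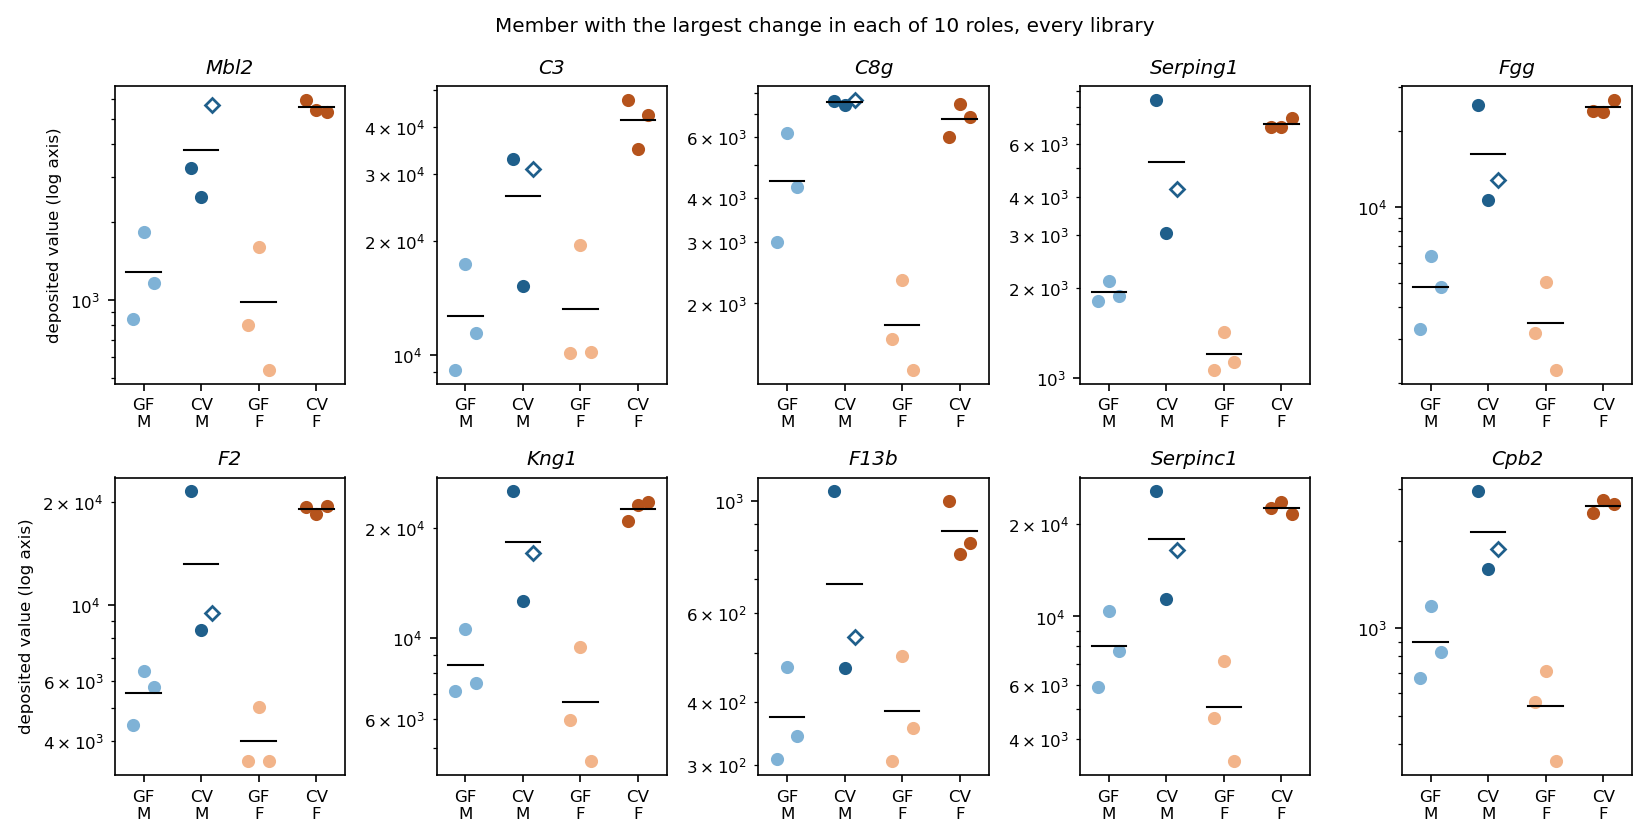
Deposited value on log axes in each of 12 libraries for the gene with the largest change in each of 10 roles, by group (GF and CV, M males, F females), with the group mean as a bar and the library labelled CV male 3 as an open diamond. The CV females lay above the GF females in all 10 genes, and of the CV males, CV male 2 lay among the GF males in C3 (15169.7) and F13b (467).

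The condition effect was also tested within each sex. In females, 30 of the 38 rose and 0 fell, with a median of 1.71, beside 29.8% and 26% of all genes. In males, 15 of the 38 rose and 0 fell, with a median of 0.78, beside 14.1% and 15.4% of all genes. CV and GF values of the same sex were separate, with CV above, in 32 of the 38 in females and 20 in males, against 34% and 22% of all genes. The male count was also 20 without the library labelled CV male 3, against 26.3% of all genes. They were separate with CV below only for Hc, in both sexes, against 31% of all genes in females and 21.1% in males. Without the library labelled CV male 3, the male count with CV below was 2 (Hc and F5), against 24.5% of all genes. The 15 that rose in males were Cfi, Mbl2, Masp2, Serping1, Fga, Fgg, F2, F7, F10, Kng1, Plg, Serpinc1, Serpinf2, Cpb2 and Apoh.

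No gene of the list passed when the male and female changes were set against each other. The interaction was called for 0 of the 38 and 0% of all genes by limma, 11 of the 38 had an unadjusted p under 0.05, and edgeR and DESeq2 also called 0. The median difference between the female and the male change was 0.83 on the log2 scale, against 0.06 over all genes. The female change exceeded the male change in all 38, a share that was not counted over all genes. It exceeded the male change in 35 of the 38 without the library labelled CV male 3 (median 0.81), in 37 with the trend of length and GC content removed, in 30 with scaling to nuclear protein-coding reads (median 0.38, against -0.39 over all genes), and in 20 with the mitochondrial ribosomal RNA share as a covariate (median 0.026, against 0.022). For F7 the changes were close, at 0.94 in females and 0.74 in males. For C9 they were 2.01 and -0.00 (log2 difference 2.01 ± 0.68 SE, limma adjusted p = 0.417). Without the library labelled CV male 3, the male change of C9 was 0.49 ± 0.46 SE and that of C6, -1.21 with it, was -0.03 ± 0.31 SE. In the plot of the change in each sex under the deposited scaling, all 38 points lie above the line of equal change.

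The count of calls in males moved with the library left out. The median male change of the 38 then ran from 0.55 (without CV male 1) to 0.99 (without GF male 2). CV male 1 was the highest CV male in 33 of the 38, and CV male 2 the lowest in 31. GF male 2 was the highest GF male in 29 and GF male 1 the lowest in 28. Leaving out GF male 1 left 2 of the 38 called higher in males (6.15% of all genes), and leaving out GF male 3 left 4 (8.35%). Leaving out CV male 1 left 4 higher (8.2%) and made 2, Hc and C6, lower (10.3%), and leaving out GF male 2 gave 20 higher (15.1%). Without the library labelled CV male 3, 12 rose in males, 31 over both sexes and 31 in females, beside 12.1%, 32.1% and 30% of all genes. Without CV male 1, the interaction was called for 8 (F12, C9, Serping1, F2, Fga, Masp2, Serpinf2 and Plg), beside 1.59% of all genes. As given above, CV male 1 had 1.39% and CV males 2 and 3 had 5.89% and 6.32% mitochondrial ribosomal RNA. The part of this share in the spread among the CV males was not tested.

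**Figure D4:**
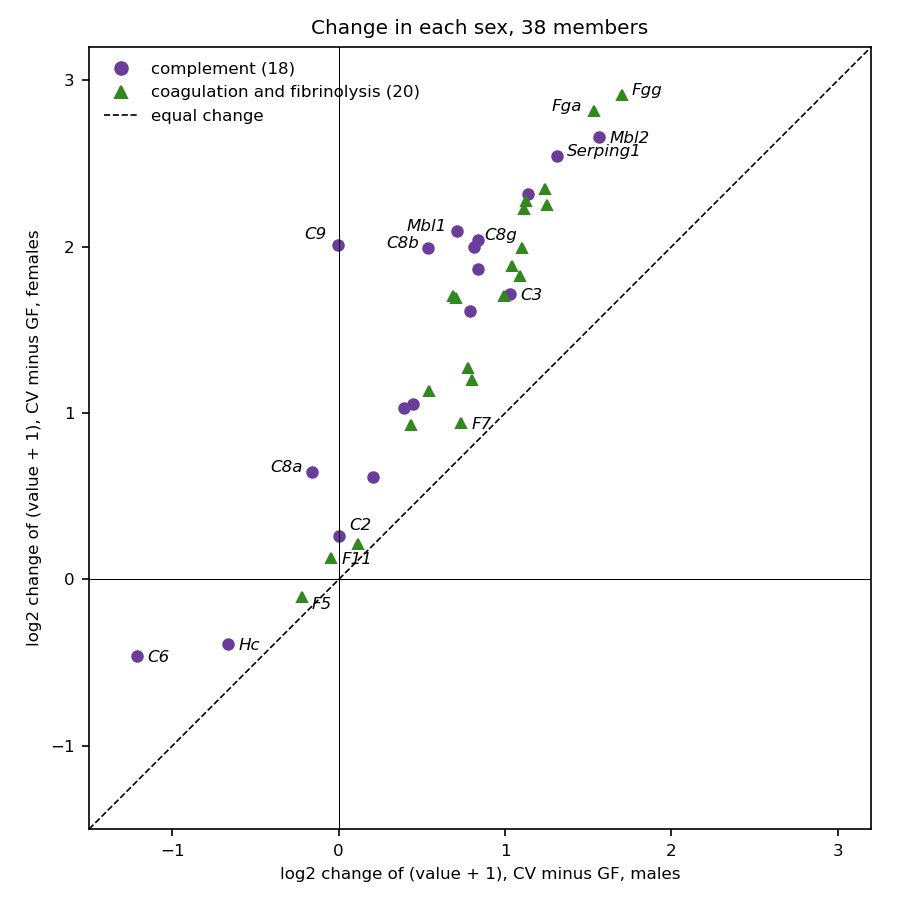
Log2 change of (value + 1), CV minus GF, in females against that in males for the 38 genes, with 18 complement genes as circles and 20 coagulation and fibrinolysis genes as triangles. All 38 lie above the dashed line of equal change, C9 farthest from it (2.01 in females and -0.00 in males), and C6, Hc and F5 lie below 0 on both axes.

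Some terminal complement genes and Mbl1 differed between the sexes in GF liver. Of the 38, 5 were higher in GF males than in GF females (C6, C9, C8b, C8g and Mbl1) and 0 were lower, beside 1.23% and 0.399% of all genes. All 3 GF males lay above all 3 GF females in 13 of the 38, against 10.2% of all genes. C6, the first protein to join C5 in the membrane attack complex, had values of 1188, 1972 and 1787 in the GF males, 179.6, 207 and 197 in the GF females, 1879.9, 1333 and 134 in the CV males and 109, 199 and 130.1 in the CV females. In GF, the males lay at 1188 to 1972 and the females at 179.6 to 207 (log2 difference 3.04 ± 0.64 SE, limma adjusted p = 0.025). In CV, CV males 1 and 2 lay within the GF male range, and the library labelled CV male 3 lay at 134, among the females.

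C9 values were 816, 1846 and 1447 in the GF males, 229, 340.5 and 102 in the GF females, 2853, 1169 and 648 in the CV males and 898, 853 and 686 in the CV females. The GF males lay above the GF females (log2 difference 2.69 ± 0.48 SE, limma adjusted p = 0.00797), while in CV the library labelled CV male 3 lay under all 3 females and CV males 1 and 2 above them. For the others the GF difference was 1.70 ± 0.41 SE for C8b, 1.35 ± 0.31 SE for C8g and 1.45 ± 0.31 SE for Mbl1, with adjusted p-values of 0.0475, 0.0391 and 0.0272 from limma. C8a, whose gene lies beside that of C8b on chromosome 4, had a difference of 1.18 ± 0.30 SE that did not pass (limma adjusted p = 0.0589). None of the 20 coagulation and fibrinolysis genes was called between the sexes in GF by limma, edgeR or DESeq2, and 1 had an unadjusted p under 0.05.

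In CV liver, 0 of the 38 differed between the sexes by limma, beside 0.0509% of all genes called higher and 0.00849% lower, 5 had an unadjusted p under 0.05, and edgeR and DESeq2 each called 1, C6. Without CV male 1, 3 of the 38 (F12, Fga and Serpinf2) were called lower in CV males than in CV females, beside 0.255% of all genes. Without the library labelled CV male 3, C6 was called in CV, beside 0.373% of all genes, with a log2 difference of 3.48 ± 0.31 SE, against 2.29 ± 0.64 SE with it. Over both conditions, C6 (log2 difference 2.67 ± 0.45 SE, limma adjusted p = 0.00545) and C9 (log2 difference 1.69 ± 0.34 SE, limma adjusted p = 0.0153) were higher in males and 0 were lower, beside 0.73% and 0.433% of all genes. Without the library labelled CV male 3, 4 of the 38 were called higher in males over both conditions, beside 1.06% of all genes, with C6 at 3.26 ± 0.21 SE, C9 at 1.94 ± 0.31 SE and C8b at 1.19 ± 0.27 SE. Without GF female 2 the count over both conditions was also 4 (C6, C9, C8g and Mbl1), and without GF male 2, GF male 3 or CV female 3 it was 1 (C6). The share of all genes called in these fits is not given here. The count of GF calls moved with the library left out. The median GF difference of the 38, 0.46 with all libraries, then ran from 0.35 (without GF female 3) to 0.67 (without GF female 2). Leaving out GF male 2 left 0 of the 38, and leaving out GF male 3, GF female 1 or GF female 3 left 1 (C9). Leaving out CV male 2 or any 1 of the CV females left 3 (C6, C9 and Mbl1). For these GF counts the share of all genes called is not given either, so they do not set the 38 apart from other genes. CV libraries enter the GF comparison only through the estimate of the spread, which all groups share.

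**Figure D5:**
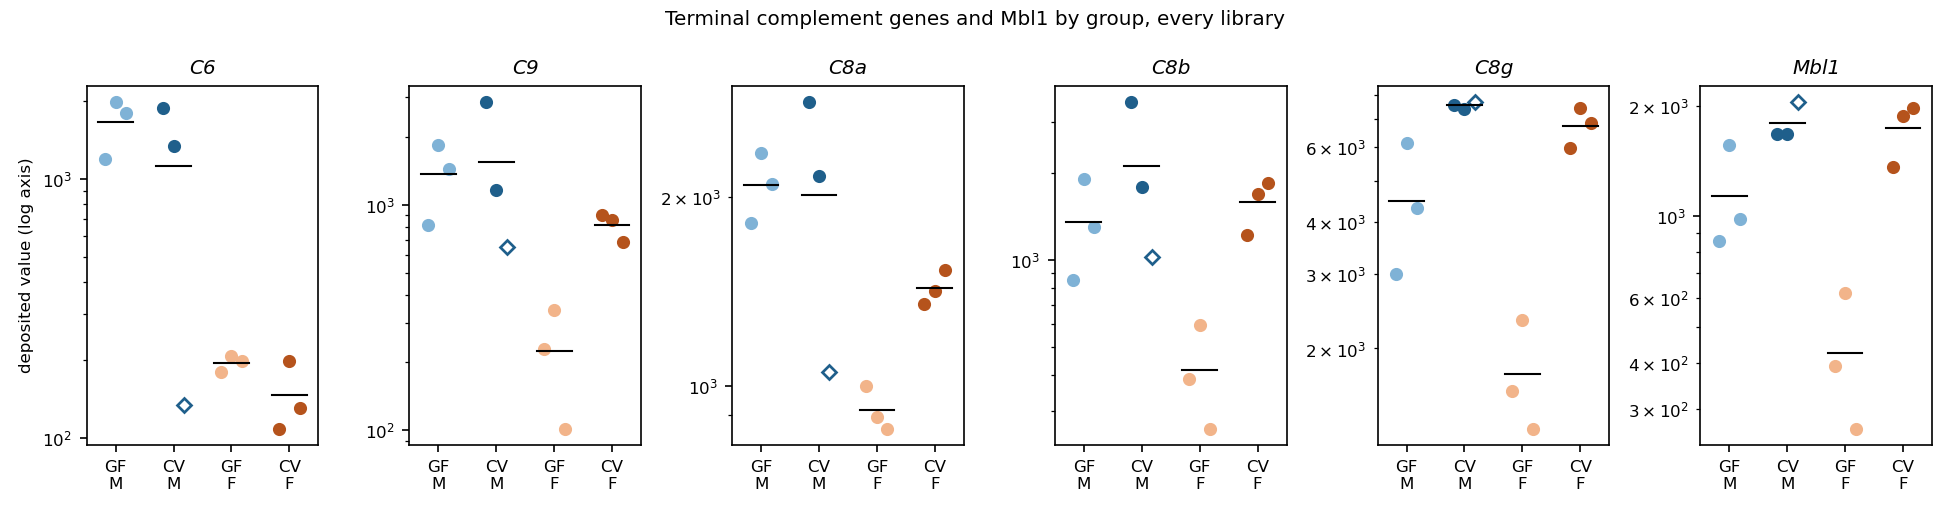
Deposited value on log axes in each of 12 libraries for C6, C9, C8a, C8b, C8g and Mbl1, by group (GF and CV, M males, F females), with the group mean as a bar and the library labelled CV male 3 as an open diamond. For C6, the 5 libraries of the other males lie at 1188 to 1972 and the open diamond (134) lies among the females (109 to 207).

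Levels can be compared between genes only per length, here as the mean deposited value per kilobase of the longest coding transcript. In CV, the order began with Apoh (14388), Fgg (11784), Vtn (11221) and Fgb (10970.0), and it ended with Masp1 (119), Pros1 (65.8), C2 (46.6) and Cfb (45.3). In GF, it began with Apoh (5997), Fgb (5075), Vtn (4610) and Kng1 (3344) and ended with the same 4 genes. Fgg moved from rank 8 in GF to 2 in CV, and Hc from rank 20 to 29. Neighbours in the order, such as Fgg and Vtn in CV, had libraries that overlapped in level, and the order among them is a description.

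Other genes of the pathways were read from lists of general knowledge. The counts of these lists are over both sexes, where 32.3% of all genes rose and 28.7% fell. Among 19 other liver complement genes, 16 were tested, 11 rose and 0 fell (median 0.80). Clu, clusterin, rose by 1.89 and C1rl by 1.23. Among 15 complement genes of immune and endothelial cells, 10 were tested, 7 rose and 2 fell. The C1q genes C1qa, C1qb and C1qc, which macrophages make, rose by 1.80, 1.63 and 1.33. Cd55, a membrane regulator that speeds the decay of convertases, fell by 1.57, and Itgb2, a leukocyte integrin chain, fell by 0.62.

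Among 21 other coagulation genes, 12 were tested, 7 rose and 2 fell. F3, tissue factor, rose by 2.45 from low values (2.83 to 13.6 in GF and 23.5 to 51.7 in CV). F8, the cofactor of F9, which endothelial cells make, fell by 1.37, from 124 to 496 in GF to 69.7 to 207 in CV. Tfpi, the inhibitor of the tissue factor pathway, fell by 0.73. The Tfpi change was -1.28 ± 0.31 SE in females and -0.17 ± 0.31 SE in males. The F8 change was -1.80 ± 0.40 SE in females and -0.93 ± 0.40 SE in males. Neither Tfpi nor F8 passed the threshold in males. All 8 genes of the vitamin K cycle and of factor processing and secretion rose, by 0.49 to 2.09, Vkorc1, the target of warfarin, by the most. Of 33 other secreted hepatocyte proteins, 23 rose and 1 fell, with a median of 1.08 against 1.23 for the 38. Pltp rose by 2.91, A1bg by 2.87 and Igfbp2 by 2.41, and Igfbp1 fell by 0.87. The A1bg change was 4.80 ± 1.20 SE in females and 0.93 ± 1.20 SE in males, where CV values ran from 1.59 to 530. The Igfbp1 change was -1.71 ± 0.42 SE in males and -0.036 ± 0.42 SE in females. Neither A1bg in males nor Igfbp1 in females passed the threshold. The difference between that list and the 38 was not tested.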

How the data were processed

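RNA sequencing of liver gave 12 libraries, 3 in each group of condition and sex, with groups and replicate numbers taken from the sample titles. The paper linked to the series describes no liver or germ-free experiment, so nothing but style was taken from it. The submitters' processing notes name GRCm38, HTSeq 0.6.1p1 and DESeq2. The aligner and the annotation are not given in the sources used here. The deposited unit is a signal, gene counts that the authors divided by 1 size factor per library. In every library 100% of values were whole multiples of 1 read within 0.01 reads, and read counts were recovered from them as deposited. The main test was limma 3.58.1 (R 4.3.3) on log2(value + 1), genes with a mean value of at least 10, 1 mean per group over all 12 libraries, a variance trend, and Benjamini-Hochberg adjustment. edgeR 4.0.16 on the recovered reads (3549 genes higher and 3767 lower in CV of 11782 tested) and DESeq2 1.42.0 were alternatives. The tests were run on simulated data first.

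Further alternatives were pseudocounts of 0.1 and 10, no filter, a mean of at least 50, scaling to all reads, to nuclear protein-coding reads or by TMM, a threshold of 0.01, a replicate block, the mitochondrial ribosomal RNA share as a covariate, removal of a loess trend with transcript length and GC content, and leaving out each library. GENCODE M21 on GRCm38 listed 40254 identifiers (97.9%) and gave coordinates, lengths and gene types. The members and lists were chosen with earlier results of these data known. Per-library values are given for the member with the largest change in each role, each member lower or not called over both sexes, and each with a sex or interaction call. Other listed genes are named by the largest changes, and a few (Clu, C1rl and the C1q genes) after their values were seen. A gene of these lists is included in the counts and is not reported here. Genes whose exons overlap a gene on the opposite strand (C2, Fgg, Hc, F5, Masp2, Plg, Serpinc1 and Apoh) depend on the strand setting of the counting, which is not given. Same-numbered GF and CV libraries did not deviate together (correlations of -0.228 to 0.0188), and numbers were not used to pair mice across conditions. With 3 libraries per group, these correlations cannot show whether any mice were paired. Same-numbered males and females correlated at 0.118 to 0.193 in CV and at 0.0593, 0.403 and 0.0682 in GF, and the replicate block changed no count of sex calls. A count of 0 allows up to 3 reads, for counting error only. Mice are separate animals per the series text, and whether littermates share a number is not stated.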

Additional observations from a re-analysis of the deposited data

Results flagged for a closer look

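Among the 6 CV livers, 1 library stood apart from the rest, by its gap to the nearest value over the whole range, for 4 of the 38 genes (of 76 sets of 6 livers checked, where chance gives about 1 in 20). Hc in CV male 1 was 2752, with the next value at 2164 and the lowest at 1914. C8b in CV male 1 was 3503, with the next at 1838 and the lowest at 1023. C9 in CV male 1 was 2853, with the next at 1169 and the lowest at 648. F5 in the library labelled CV male 3 was 2097, with the next at 1715 and the lowest at 1489.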

How the results depend on the processing

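Over both sexes, 29 to 31 of the 38 genes were called higher when 1 library was left out, with C9 lost without GF male 1 or CV male 1 and C8a gained without the library labelled CV male 3. Other counts are given where a setting moved them by over 1.5 times, and for the replicate block. For each change of count or sign below, the cause was not tested. Where no count over all genes stands beside a setting, the move was not set against all genes. With the mitochondrial ribosomal RNA share as a covariate, 0 were called higher over both sexes, in males, in females and between the sexes in GF, 0 were called lower, and 1 was higher in males over both conditions. The count called lower over both sexes (1) became 0 with scaling to all reads, with the length and GC trend removed (alone or with the replicate block) and at the threshold of 0.01, 6 with scaling to nuclear protein-coding reads, and 1 to 2 with 1 library left out. In males, the count called higher (15) became 8 without a filter, 26 with scaling to all reads, 6 with scaling to nuclear protein-coding reads, 4 at the threshold of 0.01, and 2 to 20 with 1 library left out. Of all 11782 genes, 1660 were called higher in males in the main fit. Scaling to all reads gave 2825 and nuclear protein-coding scaling 560. The count called lower in males (0) became 1 with DESeq2 (Hc) and 1 with TMM scaling, 2 with nuclear protein-coding scaling, and 0 to 2 with 1 library left out. Of all genes, 1814 were called lower in males in the main fit, 1948 with TMM scaling and 2901 with nuclear protein-coding scaling. In females, the count called lower (0) became 1 with DESeq2 (Hc) and 4 with nuclear protein-coding scaling. Of all genes, 3060 were called lower in females in the main fit and 5708 with nuclear protein-coding scaling.

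The count higher in males in GF (5) became 3 without a filter and with edgeR under either normalization, 12 with scaling to all reads, 1 with nuclear protein-coding scaling, 1 at the threshold of 0.01, and 0 to 7 with 1 library left out. In CV it (0) became 1 with edgeR under either normalization and with DESeq2, and 0 to 1 with 1 library left out, where 0 to 3 were called lower in males. Over both conditions it (2) became 6 with DESeq2, 4 with scaling to all reads, 1 at the threshold of 0.01, and 1 to 4 with 1 library left out. Of all 11782 genes, 145 were called higher in GF males in the main fit and 1349 with scaling to all reads. Nuclear protein-coding scaling gave 67. Over both conditions, 86 of all genes were called higher in males in the main fit and 123 with scaling to all reads. The interaction count (0) was 0 to 8 with 1 library left out. With the length and GC trend removed, C4b and F5 were called higher over both sexes and Proc was not. With the replicate block, 30 were called higher and 1 lower over both sexes, and the block changed no other call count.

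Changes turned sign as follows over both sexes. With nuclear protein-coding scaling they were C2 -0.55, C4b -0.27, C8a -0.44, F11 -0.64, Proc -0.0043 and Pros1 -0.52. With scaling to all reads they were Hc 0.034 and F5 0.40. With the length and GC trend removed, with or without the replicate block, they were C2 -0.10, F5 0.50 and F11 -0.17. F11 was -0.022 with edgeR under TMM, -0.0021 with DESeq2, -0.025 with TMM scaling, and -0.13 to 0.17 with 1 library left out. With the ribosomal covariate they were C2 -0.48, C4b -0.47, C8a -1.17, C8b -0.33, C9 -0.84, Cfb -0.36, Masp1 -0.90, C4bp -0.10, Fga -0.0089, F5 0.22, F7 -0.057, F11 -1.41, F12 -0.65, F13b -0.35, Plg -0.21, Serpinf2 -0.30 and Pros1 -0.83. In males, C9 was 0.13 and 0.19 with edgeR, 0.15 with DESeq2, 0.31 with scaling to all reads and -0.57 to 0.49 with 1 library left out, and with the covariate C8b was -0.42 and F13b -0.0084. In females, C6 was 0.34 with scaling to all reads, and with the covariate C8b was -0.24, C9 -0.57, F2 -0.0094 and F13b -0.69. Depth limits the least abundant members, Cfb and C2, the most, with as few as 32 and 34 reads in a library.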
